A study of Mus musculus with 6 samples.

Results

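The genes described here are 10 members of the BCL-2 family, taken by symbol from a raw count table of 49315 mouse genes, of which GENCODE M21 named 49056. They are 5 survival genes (Bcl2, Bcl2l1, Mcl1, Bcl2a1b and Bcl2a1d), 2 effector genes (Bax and Bak1) and 3 genes of the BH3-only class (Bcl2l11, Bbc3 and Pmaip1). Bulk RNA-seq was run on regulatory T cells (Tregs, the suppressive CD4+ lineage defined by Foxp3) of 2 sites, skin and skin-draining lymph node (SDLN), with 3 libraries of each. All samples came from 9-day-old mice of the Foxp3-GFP genotype, a reporter in which Foxp3-expressing cells carry a green fluorescent protein, and the labels name no treatment. The tissues of 3 mice were pooled for a sample, and live CD45+ CD4+ Foxp3-EGFP+ cells were sorted. The labels give 1 batch for all samples and call the tissue skin in the lymph node samples too, so the groups follow the sample titles. Libraries are called A, B and C within each tissue, as in the count table, and nothing links these letters to the numbered titles or across tissues.

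BCL-2 family proteins set whether the mitochondrial outer membrane stays intact. Survival members hold the effectors BAX and BAK in check, whereas BH3-only proteins bind the survival members or activate the effectors. Once active, BAX and BAK open the membrane, cytochrome c leaves and caspases are switched on. In Tregs, MCL1 is known as the survival member that the cells cannot do without, and BIM, the product of Bcl2l11, as a main driver of their turnover.

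The skin libraries A to C held 3748669, 11741784 and 9033442 counts in total, and each SDLN library held between 47243498 and 116158706. Levels are given in counts-per-million of the library total (CPM). A count of 0 allows up to 3 counts, called the floor, which is 0.8003, 0.255 and 0.332 CPM in skin A to C and at most 0.0635 CPM in an SDLN library. Reads carry no molecular identifiers, so floors and intervals cover counting error only and not the spread between libraries. The skin libraries differed from their label in places. Foxp3 had 0, 330 and 1 counts and Cd4 had 0, 1861 and 2 counts in skin A to C, against at least 1788 and 14288 in every SDLN library, while the 10 T cell markers summed to between 4045 and 6734 CPM in skin and 8827 to 10690 CPM in SDLN. The 8 Treg markers, Foxp3 included, summed to 5847, 9108 and 7288 CPM in skin A to C and to 5916 to 6734 CPM in SDLN. Of the 8, 6 were above the floor in all skin libraries, and Foxp3 and Ikzf4 were not. Foxp3 gave 0, 28.1 and 0.11 CPM of the sums in skin A to C, and Ikzf4 gave 151, 0.17 and 0 CPM. Ctla4 was called higher in skin (adjusted p 0.0447 in edgeR), and the other 7 were not called. The 20 myeloid markers summed to 62850, 39080 and 34740 CPM in skin A to C, with 15 of 20 above the floor in all 3 and Itgam at 0, against at most 780.5 CPM in SDLN. The 20 immediate-early and heat-shock genes summed to 38960, 22680 and 14400 CPM in skin and at most 4807 CPM in SDLN, with 19 of 20 above the floor in all skin libraries. The paper describes enzyme digestion for skin and mashing over a filter for lymph nodes, so handling and tissue cannot be told apart. The 7 B cell markers summed to 586.2 to 860.6 CPM in skin, with 5 of 7, Ms4a1 and Pax5 among them, at 0 in all skin libraries, and to 1478 to 1713 CPM in SDLN. Nearly all of this was 1 gene, Ighm, at 583.5 to 860.6 CPM in skin and 1417 to 1622 CPM in SDLN. In bulk samples such as these, fewer cells of a type and less RNA per cell cannot be told apart. Below, skin Tregs and SDLN Tregs name the sorted libraries, and a difference between them is not shown to lie within Tregs.

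The family differed in both directions between the tissues. Pmaip1, which encodes the BH3-only protein NOXA, was higher in the skin libraries, while Bcl2, Bcl2a1d, Bak1 and Bbc3 were at or near a count of 0 in all skin libraries and well above it in all SDLN libraries. Of the 10 members, 1 was higher, 4 were lower and 5 did not pass edgeR's quasi-likelihood test with Benjamini-Hochberg adjustment over 13572 genes (threshold 0.05). Over all genes tested, 1.04% were higher and 45.3% lower, 46.3% in either direction, so that the members' share of lower calls was near the share among all genes. P-values measure the spread between these samples, which pool mice. All skin libraries lay above all SDLN libraries for 2 members and below for 5, whereas 2.39% and 53.6% of the genes tested did so. The members' median log2 fold change of skin over SDLN was -1.65, beside -2.21 over all genes tested. With genes at the floor in every skin library set at their bound, these medians were -1.65 and -1.29, so the order of the members and all genes turned.

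**Figure D1:**
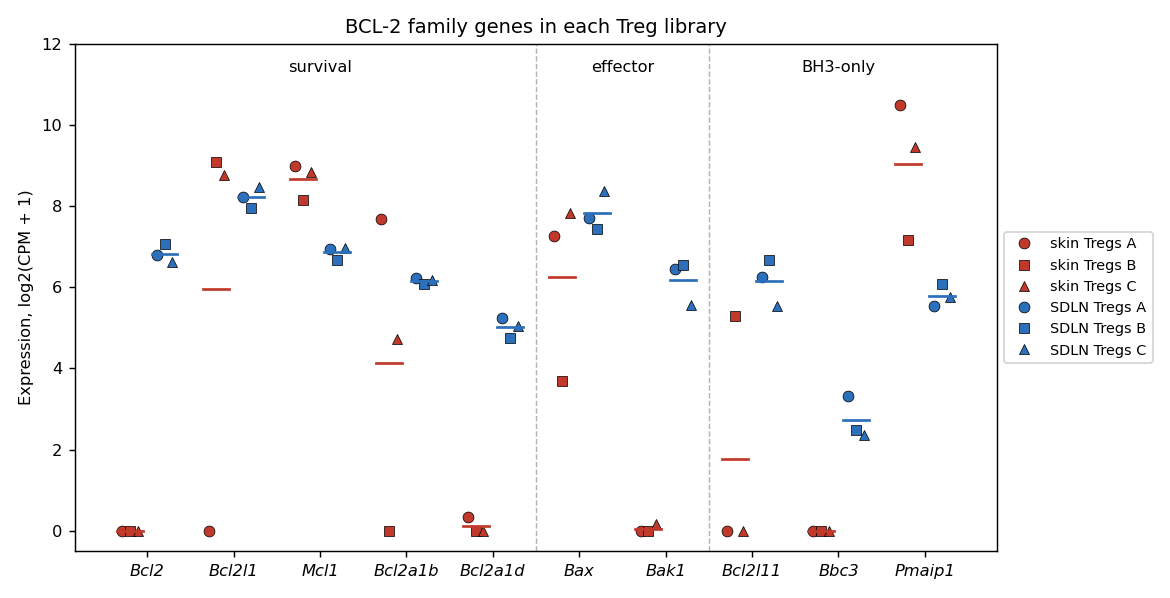
Level of each BCL-2 family gene as log2(CPM + 1), 1 point per library, with skin Tregs and SDLN Tregs side by side and genes ordered by role. For Bcl2l1, Mcl1, Bcl2a1b, Bax, Bcl2l11 and Pmaip1, the skin points of the gene lie further apart than its SDLN points. The highest point is 1452 CPM (Pmaip1 in skin A), and all skin points of Bcl2 and Bbc3 are at 0. Horizontal lines are the means of the log2 values of 3 libraries, and a count of 0 is drawn at 0.

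Among the survival genes, Mcl1 was the one above the floor in every skin library. Mcl1 (ENSMUSG00000038612, GRCm38 chromosome 3, 95658788 to 95663176, plus strand) encodes a short-lived protein that restrains BAK and is bound by NOXA. It stood at 510, 282 and 459 CPM in skin A to C and at 122, 101 and 125 CPM in SDLN A to C. All skin libraries were above all SDLN libraries, with means of 417 ± 120 and 116 ± 13.2 CPM (SD, n = 3 each). edgeR estimated a log2 fold change of 1.81 (SE 0.616), which did not pass (adjusted p 0.0575). Mcl1 passed in 5 of 16 alternative fits, with an adjusted p between 7.53e-07 and 0.479, and its direction was the same in all of them.

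Bcl2 (ENSMUSG00000057329, chromosome 1, 106538178 to 106714274, minus strand), the founding survival gene of the family, had 0 counts in each of the 3 skin libraries. In SDLN A to C it had 12861, 9644 and 4586 counts, or 111, 132 and 97.1 CPM, a mean of 113 ± 17.9 CPM (SD, n = 3). Set against the mean floor of 0.463 CPM per skin library, Bcl2 was at least 245-fold lower in skin Tregs, a bound for counting error only. The adjusted p in edgeR was 0.0117. Leaving out any 1 SDLN library ended the call, with adjusted p-values of 0.0634, 0.0622 and 0.0589 without SDLN A, B and C in turn.

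Bcl2l1 (ENSMUSG00000007659, chromosome 2, 152780668 to 152831728, minus strand), which encodes BCL-XL, split the skin libraries. It had 0 counts in skin A but reached 547 CPM in skin B and 434 CPM in skin C, while SDLN A to C held 301, 247 and 355 CPM. Skin B and C lay above every SDLN library and skin A below every one, so the groups overlapped. Means over the libraries were 327 ± 289 and 301 ± 54.1 CPM (SD, n = 3 each). edgeR estimated a log2 fold change of 0.29 (SE 2.09, adjusted p 0.97). The direction turned with skin B left out (-0.16), with skin C left out (-0.19) and in limma voom with sample weights (-2.63).

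Bcl2a1b and Bcl2a1d are 2 of the near-identical mouse copies that encode A1, a survival protein induced by antigen and inflammatory signals in lymphocytes and myeloid cells. Their coding sequences, like that of Bcl2a1a, are 516 bases long. Bcl2a1b and Bcl2a1d differ at 6 of these bases and share a run of 217 identical ones, which is longer than a 150-base read. The first 120 coding bases are shown because 7 of the 12 positions that differ among the 3 copies fall there, so reads from this stretch can tell the copies apart. Capitals mark those 7 positions, read 5′ to 3′ from the GRCm38 transcripts.
Bcl2a1a: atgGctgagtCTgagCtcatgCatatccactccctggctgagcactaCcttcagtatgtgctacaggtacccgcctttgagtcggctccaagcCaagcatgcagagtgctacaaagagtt
Bcl2a1b: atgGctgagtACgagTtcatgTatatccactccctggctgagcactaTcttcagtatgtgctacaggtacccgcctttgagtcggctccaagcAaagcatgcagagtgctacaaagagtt
Bcl2a1d: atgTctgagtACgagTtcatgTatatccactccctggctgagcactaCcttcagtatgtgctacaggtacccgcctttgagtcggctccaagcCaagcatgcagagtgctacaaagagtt
Of all 150-base windows on the annotated transcripts, 58.1% were unique to Bcl2a1b and 69.7% to Bcl2a1d, so the division of reads between the copies is uncertain. Among the other 8 members this share was between 93.7% and 100%.

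Bcl2a1b (ENSMUSG00000089929, chromosome 9, 89199209 to 89207827, plus strand) stood at 205, 0 and 25.6 CPM in skin A to C and at 74.0, 66.5 and 71.5 CPM in SDLN A to C. Skin A was above and skin B and C below every SDLN library. Means over the libraries were 77.0 ± 112 and 70.7 ± 3.81 CPM (SD, n = 3 each). edgeR estimated a log2 fold change of -0.28 (SE 2.29, adjusted p 0.974). Without skin B the log2 fold change was 0.29, and without skin A it was -2.40. An annotated gene on the same strand, Gm29094, covers 49.1% of the exon bases of Bcl2a1b and held at most 2 counts in a skin library. The 12 mast cell and granulocyte markers summed to 226.5 CPM in skin A, nearly all of it Cma1 (216 CPM), to 0 in skin B and C and to at most 26.9 CPM in SDLN, with 8 of 12 at 0 in all skin libraries. Their part in the Bcl2a1b level of skin A was not tested, nor was that of the myeloid markers.

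Bcl2a1d (ENSMUSG00000099974, chromosome 9, 88723285 to 88731914, minus strand) had 1, 0 and 0 counts in skin A to C and 37.0, 26.1 and 31.8 CPM in SDLN A to C. Skin Tregs held 1 count of it in all and SDLN Tregs 7695, which relative to the totals is 799 times as much in SDLN (95% exact interval 143 to 31600). The interval is on summed counts and leaves out the spread between libraries. The adjusted p in edgeR was 0.00635, and the call held in each of the 14 alternative fits that kept the copies apart and tested it. With Bcl2a1a, Bcl2a1b, Bcl2a1c and Bcl2a1d summed into 1 gene, the log2 fold change was -0.79 and the adjusted p 0.91. In skin A the sum was mainly Bcl2a1b, with 770 counts, beside 29 of Bcl2a1a and 1 of Bcl2a1d, in skin C it was 231 of Bcl2a1b and 1 of Bcl2a1a, and in skin B all 4 copies were at 0.

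Of the 2 effector genes, Bax was detected in the skin libraries and Bak1 was not, apart from 1 count. Bax (ENSMUSG00000003873, chromosome 7, 45461697 to 45466898, minus strand) was above the floor in all of them, at 152, 11.9 and 229 CPM in skin A to C, against 209, 171 and 331 CPM in SDLN A to C. Skin C lay within the SDLN range and skin A and B below it, with the lowest value in skin B. Means over the libraries were 131 ± 110 and 237 ± 83.7 CPM (SD, n = 3 each). edgeR estimated a log2 fold change of -0.83 (SE 1.2, adjusted p 0.758), and Bax did not pass in any of 16 alternative fits either, where the value ran from -2.09 (without skin C) to -0.30 (without skin B).

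Bak1 (ENSMUSG00000057789, chromosome 17, 27019810 to 27029009, minus strand), whose product sits in the mitochondrial membrane and is held by MCL1 and BCL-XL, had 0, 0 and 1 counts in skin A to C. In SDLN A to C it reached 86.2, 92.4 and 46.4 CPM, a mean of 75.0 ± 25.0 CPM (SD, n = 3). The ratio of SDLN to skin was 1970 (95% exact interval 353 to 77600), from 18929 counts against 1. This interval is on summed counts and leaves out the spread between libraries. The adjusted p in edgeR was 0.00953, and Bak1 was called lower in 14 of 15 alternative fits in which it was tested. Ggnbp1 on the opposite strand shares 18.2% of its exon bases and had 0 counts in every skin library.

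The BH3-only class held both the member that rose and one of those that fell. Pmaip1 (ENSMUSG00000024521, chromosome 18, 66458533 to 66465565, plus strand) encodes NOXA, which binds MCL1 and A1 and promotes the breakdown of MCL1. It stood at 1452, 143 and 699 CPM in skin A to C and at 45.8, 66.2 and 53.2 CPM in SDLN A to C. Every skin library was above every SDLN library, and the skin values spanned a wide range, with skin B closest to SDLN. Means over the libraries were 765 ± 657 and 55.1 ± 10.3 CPM (SD, n = 3 each). edgeR estimated a log2 fold change of 3.64 (SE 0.862, adjusted p 0.0157). The call was lost with any 1 SDLN library left out (adjusted p 0.0658, 0.0531 and 0.0676 without SDLN A, B and C in turn). It was also lost with no filter on low counts (0.0642) and with the column letters as a block (0.0609). The log2 fold change stayed between 2.98 and 4.10. The sums of the myeloid markers and of the immediate-early and heat-shock genes, given above, were also higher in each skin library than in SDLN. Both sums were highest in skin A and lowest in skin C, while Pmaip1 and Mcl1 were highest in skin A and lowest in skin B. The part of these genes in the levels of Pmaip1 and Mcl1 was not tested.

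Bcl2l11 (ENSMUSG00000027381, chromosome 2, 128126038 to 128162547, plus strand), the gene of BIM, had 0, 447 and 0 counts in skin A to C. Its levels were 0, 38.1 and 0 CPM there and 74.8, 102 and 45.6 CPM in SDLN A to C. Every skin library lay below every SDLN library, but skin B came close to SDLN C, with means of 12.7 ± 22.0 and 74.1 ± 28.2 CPM (SD, n = 3 each). The log2 fold change was -2.46 (SE 2.8) with an adjusted p of 0.659 in edgeR. Bcl2l11 was called lower once skin B was left out (log2 fold change -14.83, adjusted p 0.00531) and in limma voom with sample weights (-7.95, 0.0123). Without skin B its skin counts are all 0, so that fitted value depends on the prior count and is no bound, and the -2.46 rests on skin B.

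Bbc3 (ENSMUSG00000002083, chromosome 7, 16308393 to 16318205, plus strand), which encodes PUMA, a target of p53 and of FOXO factors, had 0 counts in all 3 skin libraries. It was the least abundant member by CPM in each SDLN library, at 8.92, 4.602 and 4.13 CPM in SDLN A to C. Against the mean floor per skin library it was at least 12.7-fold lower in skin Tregs, a bound for counting error only. Its adjusted p in edgeR was 0.00396. The call held in each of the 15 alternative fits in which it was tested.

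Bcl2l11 and Bbc3 are known targets of FOXO factors, so the RefSeq promoter windows of the members (250 bases before to 50 after a start site, GRCm38.p6) were searched for the FOXO motif TGTTTAC on both strands. Windows were found for 9 of 10 members, 14 in all. The motif occurred in 3.65% of all 32851 windows and, among the members, in 1 window each of Bcl2l11 and Bbc3. The first 150 bases of both windows are shown 5′ to 3′ on the plus strand, which is the strand of both genes, with the motif in capitals. In Bcl2l11 it lies on the minus strand, 227 bases before the start, and in Bbc3 on the plus strand, 167 bases before the start. The start meant for Bbc3 is a RefSeq start site inside the GENCODE gene, downstream of the gene start given above.
Bcl2l11, chr2:128125788-128125937: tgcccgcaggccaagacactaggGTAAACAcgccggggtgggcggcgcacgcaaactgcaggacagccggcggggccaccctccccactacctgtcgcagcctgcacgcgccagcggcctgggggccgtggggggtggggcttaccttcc
Bbc3, chr7:16310011-16310160: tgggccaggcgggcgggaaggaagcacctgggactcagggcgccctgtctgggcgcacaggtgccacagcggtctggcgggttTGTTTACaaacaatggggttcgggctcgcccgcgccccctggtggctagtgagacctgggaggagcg
A match is a description of these letters and not a measured site. Foxo1 stood at 0, 4.09 and 240 CPM in skin A to C and at 83.3 to 93.4 CPM in SDLN, and it did not pass (adjusted p 0.981 in edgeR). Foxo3 stood at 0, 8.35 and 3.32 CPM in skin A to C and at 34.5 to 47.1 CPM in SDLN, with every skin library below every SDLN library, and did not pass either (log2 fold change -3.29, adjusted p 0.233 in edgeR). The part of both in the levels of Bcl2l11 and Bbc3 was not tested.

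**Figure D2:**
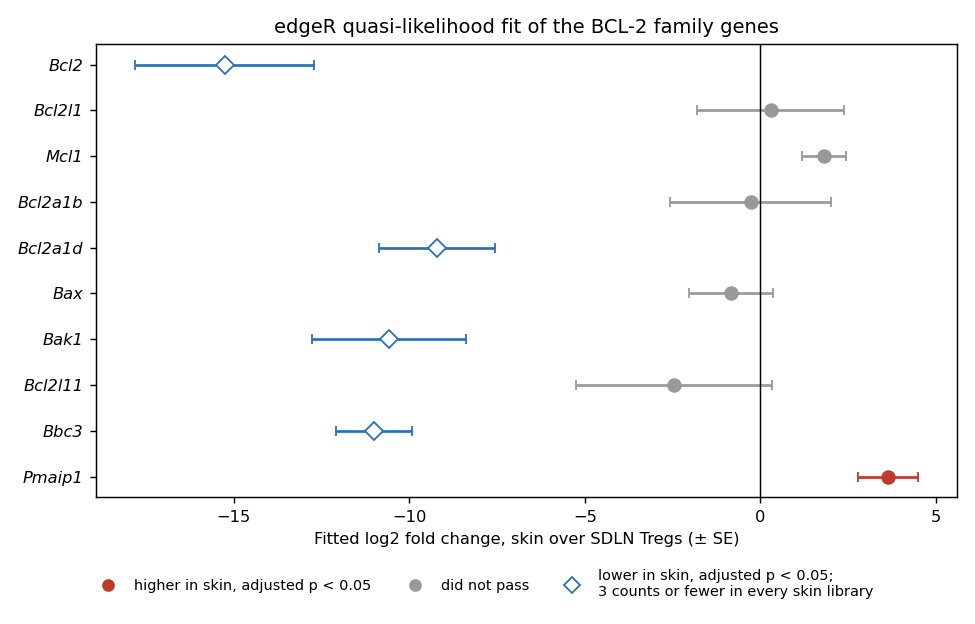
Fitted log2 fold change of each member, skin over SDLN Tregs, with bars of 1 SE from the edgeR quasi-likelihood fit (n = 3 libraries each). Pmaip1 lies above 0 and passes, and Mcl1 lies above 0 without passing. The 4 open diamonds, at 3 counts or fewer in every skin library, depend on the prior count of the fit and are no bound on the change.

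Within a library, members can be compared with one another only per gene length, here as counts per kilobase of annotated exon and counts-per-million (RPKM). In every SDLN library Bax was the highest member, at 132, 109 and 210 RPKM in A, B and C. Bcl2a1b stood at 81.4 to 90.6 RPKM and Bcl2l1 at 53.8 to 77.4 RPKM, but the order of these 2 turned with the longest annotated transcript as the length, by which Bcl2l1 was at 96.1 to 138 RPKM and Bcl2a1b at 81.4 to 90.6 RPKM. Bcl2, at 10.6 to 14.5 RPKM, was below Mcl1, at 29.6 to 36.7 RPKM, in each SDLN library, and Bbc3 was lowest at 1.94 to 4.199 RPKM.

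In skin the order changed from library to library. Pmaip1 led in skin A with 531 RPKM and in skin C with 256 RPKM, while Bcl2l1 led in skin B with 119 RPKM. Mcl1 was at 149, 82.5 and 134 RPKM in skin A to C, second to Bcl2l1 in skin B. Mcl1 and Pmaip1 together made up 66.2%, 50.6% and 59.0% of the per-length total of the 10 members in skin A to C, against 11.8%, 13.6% and 11.1% in SDLN A to C. With the longest annotated transcript as the length, the share was 36.9% to 63.6% in skin and 8.46% to 10.8% in SDLN, so it was higher in each skin library than in each SDLN library by either length.

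By role, the 5 survival genes held 39.0%, 75.7% and 39.4% of the per-length total in skin A to C and 55.4%, 53.0% and 49.3% in SDLN, so the groups overlapped. The effectors Bax and Bak1 held 9.38%, 2.84% and 22.0% in skin and 37.8%, 37.2% and 45.4% in SDLN. The BH3-only genes held 51.6%, 21.5% and 38.7% in skin and 6.80%, 9.88% and 5.36% in SDLN, and nearly all of this in skin was Pmaip1 (51.6%, 19.7% and 38.7%). Each skin library thus had a lower effector share and a higher BH3-only share than each SDLN library. The ratio of Mcl1 to Pmaip1 per length was 0.281, 1.57 and 0.525 in skin and 2.13, 1.22 and 1.88 in SDLN, and the groups overlapped in skin B. These shares are descriptions with no test, and a member at 0 raises the shares of the others in its library.

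**Figure D3:**
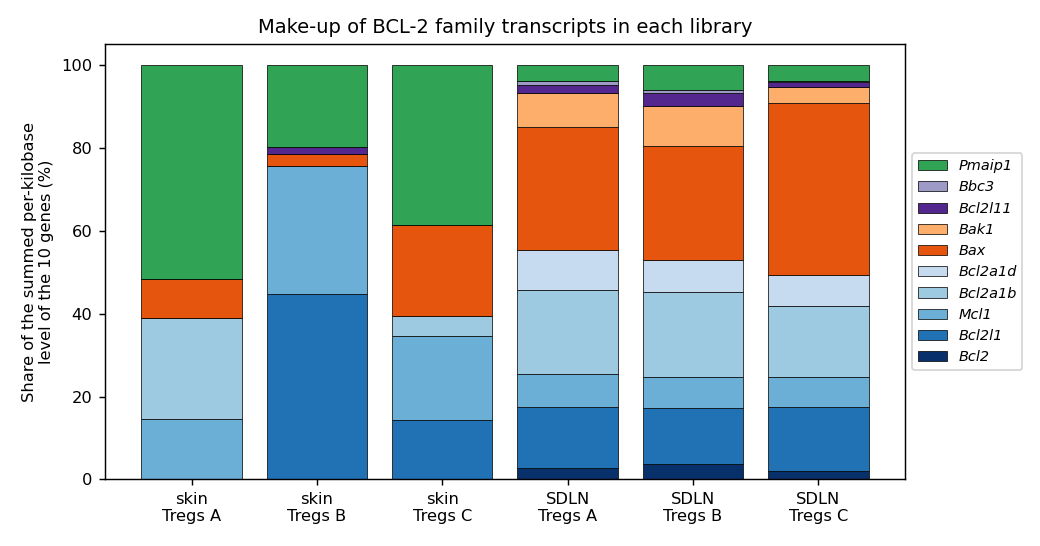
Share of the 10 members' summed counts per kilobase (percent) held by each member, 1 stacked bar per library, with bars that reach 100%. Mcl1 and Pmaip1 make up 50.6% to 66.2% of the skin bars and 11.1% to 13.6% of the SDLN bars, and no Bcl2, Bak1 or Bbc3 segment is visible in skin.

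The number of members detected differed by tissue. Above the floor were 4, 5 and 5 of 10 members in skin A to C and 10 of 10 in each SDLN library, and a minimum of 10 counts gave the same numbers. Mcl1, Bax and Pmaip1 were above the floor in all skin libraries, and 4 members, or 40%, were at the floor in all of them, against 43.3% of all genes tested. Detection in the skin libraries went with a gene's level in SDLN Tregs. At SDLN means between 100 and 300 CPM (1760 genes), the range of Bcl2, Mcl1 and Bax, 8.47% were at the floor in every skin library as Bcl2 was, and 3.98% were higher in all skin libraries than in all SDLN libraries as Mcl1 was. Of the 3649 genes at 30 to 100 CPM, the range of Bcl2l11, Bcl2a1b, Bcl2a1d, Bak1 and Pmaip1, 28.7% were at the floor in every skin library as Bcl2a1d and Bak1 were, and 2.30% had all skin libraries above all SDLN libraries as Pmaip1 did. In the range of Bbc3, 3 to 10 CPM, 65.2% of 2064 genes were at the floor in every skin library. Of the 485 genes in the range of Bcl2l1, 300 to 1000 CPM, 70.5% were above the floor in skin A, where Bcl2l1 had 0 counts. Bcl2l1, at 301 CPM, lay at the lower edge of this class, and in the class below 39.4% were above the floor in skin A. Bcl2 (113 CPM) and Mcl1 (116 CPM) likewise lay near the lower edge of their class.

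**Figure D4:**
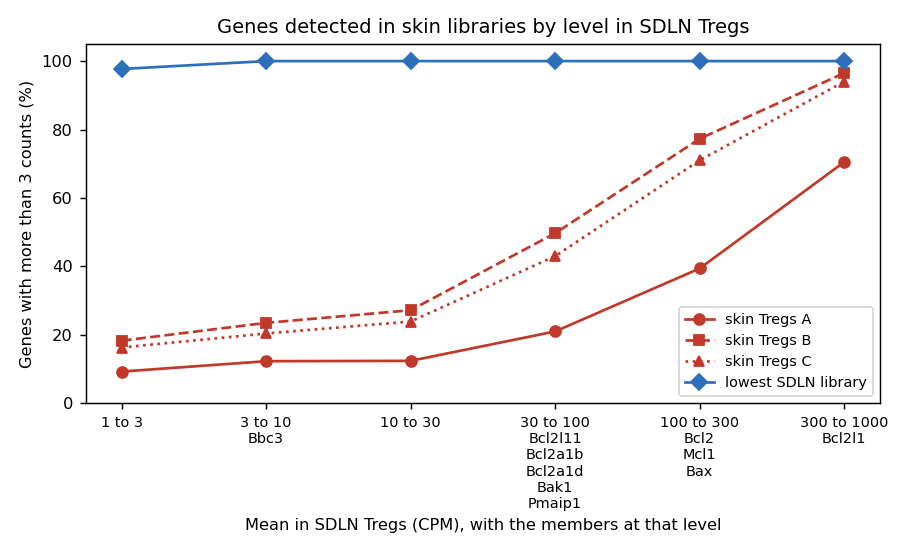
Percent of genes above 3 counts in each skin library (vertical axis) by the gene's mean level in SDLN Tregs (horizontal axis, CPM classes), with the members of each class named and the lowest SDLN library as a further line. At 100 to 300 CPM, the class of Bcl2, Mcl1 and Bax, 39.4%, 77.3% and 71.0% of genes were above 3 counts in skin A to C.

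The genes whose levels were most like a member's over the 6 libraries were found by the root mean square difference of log2(CPM + 1) among 3257 genes with a group mean of at least 100 CPM. Closest to Bcl2 were Rnf19a (0.0521), Wars (0.0577) and 9530068E07Rik (0.0703), each with 0 counts in every skin library. Closest to Mcl1 were Tsc22d3 (0.19), Nkg7 (0.24) and Lgmn (0.29), and to Bcl2l1, Eprs (0.204), Gm16286 (0.216) and Mfsd14a (0.238). Closest to Pmaip1 were Tgif1 (0.736), Nfkbiz (0.743) and Vgll4 (0.785), and to Bax, Reep5 (0.729), Ndufa9 (0.735) and Spcs1 (0.739), both at a larger distance.

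The other genes of the family included several with few counts. Of 4 further survival genes, Bcl2l2, Bcl2a1c and Bcl2l10 had too few counts to be tested, and Bcl2a1a, at 7.74, 0 and 0.111 CPM in skin A to C and 0.912 to 2.96 CPM in SDLN, did not pass (adjusted p 0.995 in edgeR). Of 6 further effector and BH3-only genes, 5 were tested and 3 fell, beside 45.3% of all genes tested. These were Bad, Bik and the effector Bok, all with 0 counts in every skin library. Bad, a BH3-only gene regulated by growth factor signals, had 43.0 to 48.0 CPM in SDLN (adjusted p 0.00493 in edgeR), while Bok and Bik had at most 1.72 CPM there. Bid, the BH3-only link from death receptors to mitochondria, stood at 0, 49.0 and 0 CPM in skin A to C and 114 to 142 CPM in SDLN (adjusted p 0.596 in edgeR), and like Bcl2l11 had 0 counts in skin A and C. Bmf stood at 0, 0 and 24.2 CPM in skin and 6.67 to 9.81 CPM in SDLN (adjusted p 0.972 in edgeR), and Hrk had too few counts to be tested.

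Across all 9 lists of related genes, including these, 58 of 63 genes were tested, 0 rose, 16 fell and 42 did not pass, with a median log2 fold change of -0.72. The lower calls were 27.6% of those tested, against 45.3% of all genes, and the shares by list below stand beside that same 45.3%. At an unadjusted p under 0.05, 1 was higher in edgeR, Tnfrsf10b, a receptor for the death ligand TRAIL, at 240, 5.62 and 184 CPM in skin A to C and 5.08 to 8.50 CPM in SDLN (adjusted p 0.0962). DESeq2 called 3 higher (Casp6, Tnfrsf10b and Atf4) and voom called 1 (Tnfrsf10b). All 16 that fell in edgeR were at the floor in every skin library. Of the 16 genes of caspases, the apoptosome and their inhibitors, 5 fell, among them Casp9, the initiator caspase of the mitochondrial pathway (mean 13.0 ± 6.18 CPM in SDLN, adjusted p 0.00344 in edgeR), the nuclease Dffb (25.2 ± 2.33 CPM, 0.00322) and Aifm1 (72.5 ± 9.09 CPM, 0.00914). Of the genes that act on MCL1 protein, the ubiquitin ligases Huwe1 (142 ± 33.6 CPM in SDLN, adjusted p 0.0153 in edgeR) and Fbxw7 (21.5 ± 2.89 CPM, 0.00377) fell, 2 of 3. Il7r, the receptor for interleukin 7, a cytokine known to raise BCL-2, had 0, 0 and 2 counts in skin A to C and 93.2 ± 23.0 CPM (SD, n = 3) in SDLN, and was the 1 of 8 cytokine receptor and signal genes that fell (adjusted p 0.0175 in edgeR). Traf2 fell as well (0 counts in skin, 142 ± 20.5 CPM in SDLN, adjusted p 0.0111), 1 of 2 among 10 death receptor genes. Of 6 further BCL-2 related genes 2 fell, of 6 tested inducers of BH3-only genes 1, and of 3 mitochondrial channel genes 0.

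Among these related genes, 10 of 58 (17.2%) were above the floor in every skin library, against 12.1% of all genes tested. In 2 of them (3.45% of the 58, against 2.39% of all genes) all skin libraries were above all SDLN libraries. Atf4, a stress-response factor known to induce Pmaip1 and named after its values were seen, stood at 367, 143 and 74.3 CPM in skin A to C and at 38.4, 40.0 and 28.6 CPM in SDLN A to C, and did not pass (adjusted p 0.167 in edgeR). Of the 6 tested inducers of BH3-only genes it was the 1 with all skin libraries above SDLN, while 3 had all skin libraries below and 2 overlapped. Trp53, the gene of p53, known to induce Pmaip1 and Bbc3, stood at 0, 54.3 and 0.22 CPM in skin A to C and at 116 to 183 CPM in SDLN, and did not pass (log2 fold change -3.03, adjusted p 0.507 in edgeR). The part of Atf4 and Trp53 in the level of Pmaip1 was not tested. Casp6 stood at 467, 228 and 172 CPM in skin and 85.6 to 118 CPM in SDLN and did not pass either (adjusted p 0.222 in edgeR). Cycs, which encodes the cytochrome c that BAX and BAK release, was detected in all libraries at 73.8 to 210 CPM in skin and 73.2 to 123 CPM in SDLN.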

How the data were processed

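RNA-seq of sorted Tregs gave 6 libraries in 2 groups of 3. The authors trimmed reads with Trimmomatic 0.36, mapped them to GRCm38 with STAR 2.5.2b and counted them with featureCounts (Subread 1.5.2), per the submitters' processing notes. The table they deposited holds whole-number counts for each Ensembl gene identifier, not normalized. The strand setting is not given in the sources used here, so reads of overlapping genes on opposite strands cannot be told apart. Symbols, positions and exon lengths came from GENCODE M21 (GRCm38).

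The members and gene lists were chosen with earlier results of these data known. Differential expression was computed over the whole table with edgeR 4.0.16 in R 4.3.3 (filterByExpr, TMM, robust quasi-likelihood fit, tissue as the only term), with Benjamini-Hochberg adjustment over 13572 genes. SE was derived from the F statistic. The common dispersion was 2.04. The code of the fit was run on simulated negative binomial counts, which is a check of the code and not of how well the model describes these libraries. DESeq2 1.42.0, limma 3.58.1 voom, other scalings and filters, summed Bcl2a1 copies, leaving out each library and a block on the column letters were alternatives. Means are ± SD over 3 libraries. All members are named. Of the related lists, called genes of at least 10 CPM are named, at most 5 a list by smallest adjusted p, and all further family genes. Bcl2l14, Bcl2l15, Endog, Tnfrsf1a and E2f1 were called below that level and are counted only. 1 called gene that the rule would name is not reported here. Atf4, Casp6, Cycs, Tnfrsf10b, Foxo1, Foxo3 and Trp53 were named after their values were seen. Ratios with 1 count have exact intervals on counts summed over the libraries of a tissue, which leave out the spread between libraries.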

Additional observations from a re-analysis of the deposited data

How the results depend on the processing

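Over 16 alternatives, 151 pairs of a member and an alternative gave a value, of which 127 kept the direction and the side of the threshold, 9 lost a call, 7 gained one and 8 turned direction. Those that turned were Bcl2l1 in voom (-2.63), with the letters as a block (-0.69), without skin Tregs B (-0.16) and without skin Tregs C (-0.19), and Bcl2a1b with DESeq2 size factors (0.033), library size only (0.14), DESeq2 (0.033) and without skin Tregs B (0.29), none of them called in either direction. With 1 library left out, Bcl2l1 ranged from -0.19 to 0.70 and Bcl2a1b from -2.40 to 0.29. The number of members called higher was 2 instead of 1, with Mcl1 added, under DESeq2 size factors, library size only, DESeq2 and voom, and 0 with no filter on low counts. The number called lower was 0 instead of 4 with at least 10 counts in every library, since 3 members were then tested and the others gave no value, and 3 with the Bcl2a1 copies summed. With 1 library left out at a time, 0 to 2 members were called higher (2 without skin Tregs A, 0 without SDLN Tregs A, B or C) and 3 to 5 lower. Of the related genes, chosen as a result to vary after seeing the data, 3 were called higher in DESeq2 and 1 in voom, beside 0, and 33 lower in voom and 0 with the minimum of 10 counts, beside 16. With 1 library left out, 0 to 1 were called higher (1 without skin Tregs A and 1 without skin Tregs B) and 13 to 32 lower (32 without skin Tregs B). The median log2 fold change of all genes, -2.21, was -2.33 with TMMwsp, -4.68 in voom, -8.05 with the letters as a block, 0.08 when every library needed at least 10 counts, and between -7.86 and -1.69 with 1 library left out (-3.35, -7.86 and -7.43 without skin Tregs A, B and C), so it is no stable reference for the members. Over all genes, 141 were called higher and 6142 lower, beside 404 and 6488 in DESeq2, 127 and 7192 in voom, 77 and 6376 with no filter, 81 and 9 when every library needed at least 10 counts, and 71 to 324 and 4983 to 7787 with 1 library left out. The cause of these changes was not tested. The letters of the table's columns cannot be tied to the numbers of the labels, and whether a letter marks the same mice in both tissues is not stated. Deviations from the group means correlated at 0.0911, 0.000907 and 0.112 (Pearson's r across 8170 genes) between the same-lettered libraries A, B and C, so the letters were not taken to pair the samples, although skin A and C, but not skin B, correlated best with their own letter. A fit with the letter as a replicate block, added after seeing the data, called 0 members higher (Pmaip1, adjusted p 0.0609) and 3 lower (without Bak1, 0.068), and 0 and 12 of the related genes, and over all genes 61 higher and 5633 lower. The floor was highest in the skin libraries, where 3 counts are up to 0.8003 CPM. Genes far above that floor in SDLN still had 0 counts in skin, as Bcl2l1 did in skin A beside an SDLN mean of 301 CPM. The cause of such absences was not tested. With 3 libraries a group and a dispersion of 2.04, a missed threshold does not show equal levels.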
